A study of Mus musculus with 2 samples.

Results

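The genes described here are those with strongly lower RNA after IL-4 stimulation that lie outside a list of gene families left out by the first letters of their symbols. Other genes of macrophage activation, such as the C-type lectins Clec4e and Clec4d, were not on that list and remain in the set. They number 139 of the 15623 genes listed in either expression table. They were chosen by their measured values: an expected count of at least 50 in the non-treated (NT) library and a log2 ratio of IL-4 over NT at or below -1.25, which corresponds to a level at least 2.38-fold lower. The expected count is an estimate of the reads belonging to a gene, and each ratio used the count plus 0.5 divided by the total of its table. Genes with only noncoding RefSeq transcripts, Gm-numbered genes and symbols beginning with family names such as Sema, Plx, Nlr, Tlr, Il, Tnf, Ccl, Cxcl, Slc, Irf, Klf, Trim, Itg, Cd, H2-, Gbp and Ifi were left out. Because the rule used this contrast, the ratios below are a description and carry no test.

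The series compared peritoneal macrophages of wild-type C57BL/6 mice, left non-treated or stimulated with mouse IL-4 for 6 h. Both groups came from thioglycolate-elicited cells that had adhered to plastic and had been starved in low serum. There was 1 library per group, so no difference here has a replicate check, and the sources used here do not say how many mice contributed to each library. A tissue label of both samples reads bone marrow, whereas their source and growth protocol name the peritoneal cavity. The methods give mice aged 6 to 8 weeks, and neither library carried a further genetic change.

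IL-4 engages a receptor that leads to phosphorylation of Stat6, which dimerizes, enters the nucleus and binds palindromic DNA sites. In macrophages this activates the alternative (M2) program, whose classical markers include the arginine-degrading enzyme Arg1, the chitinase-like protein Chil3 and the mannose receptor Mrc1. Stat6 activation is also known to lower the transcription of many genes, among them genes of the inflammatory response.

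The NT table summed to 11035641 expected counts and the IL-4 table to 11250099. Arg1 went from 30 counts in NT to 7711 in IL-4, Chil3 from 121 to 9566.5 and Mrc1 from 679 to 6962. The 8 macrophage markers were listed in both libraries and summed to 188650 counts in NT and 195842 in IL-4 (log2 ratio 0.03), most of them from Lyz2 and Cd68. Single markers moved apart: Csf1r had 6236 and 11896 counts (0.90) and Adgre1 2470 and 3377 (0.42), whereas Cd14 had 1219 and 591 (-1.07) and Fcgr1 189 and 147 (-0.39). Of the markers of other cells, those of B cells summed to 106 and 97 counts, T cells to 43.7 and 31.2, mast cells to 69 and 51 and eosinophils to 53 and 28. NK cell markers summed to 4.52 counts in NT and were listed at 0 in IL-4, whereas dendritic cell markers summed to 30.8 and 31.5. Neutrophil markers summed to 1880 and 3399 counts, almost all of it Csf3r, with S100a9, Ly6g, Mpo and Camp in neither table. Fibroblast markers summed to 2300 and 1922, mesothelial markers to 146 and 167 and adipocyte markers to 4103 and 5133. Of the adipocyte markers, Fabp4, which macrophages also express, had 4103 and 4994 counts, and Adipoq was at 0 in NT and had 139 counts in IL-4, whereas Plin1, Lep and Cidec were in neither table. No marker was among the 139 genes, and the part of these other cells in the ratios was not tested. In bulk RNA, fewer cells of a type and less RNA per cell cannot be told apart.

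Upon IL-4 stimulation, the 139 genes together went from 99667 counts, or 0.903% of the NT library, to 35576 counts, or 0.316% of the IL-4 library. Their median log2 ratio was -1.47 (2.76-fold lower), beside -0.02 over all 9679 genes with at least 50 NT counts. Of those 9679 genes, 166 (1.72%) lay at or below -1.25 and 123 (1.27%) at or above 1.25. The 139 genes are what remained of the 166 after 27 exclusions, so nothing is read from that share. More than 4-fold lower levels were seen for 17 genes, whereas 77 lay between the limit and -1.5. Each was still listed in both libraries, and the lowest IL-4 count was 5. For 52 genes the whole 95% Clopper-Pearson interval lay at or below -1.25. No interval reached 0, but the count minimum and the ratio limit of the rule fixed this in advance. These intervals cover counting error only, since there was 1 library per group. PCR copies were not marked by molecular identifiers, so the intervals may be too narrow for that error as well. At the limit, Pou6f1 (-1.2502), Cpeb3 (-1.2502) and Basp1 (-1.2500) lay just inside, and Ptk2b (-1.2484), Ndst1 (-1.2472) and Akap2 (-1.2434) just outside.

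**Figure D1:**
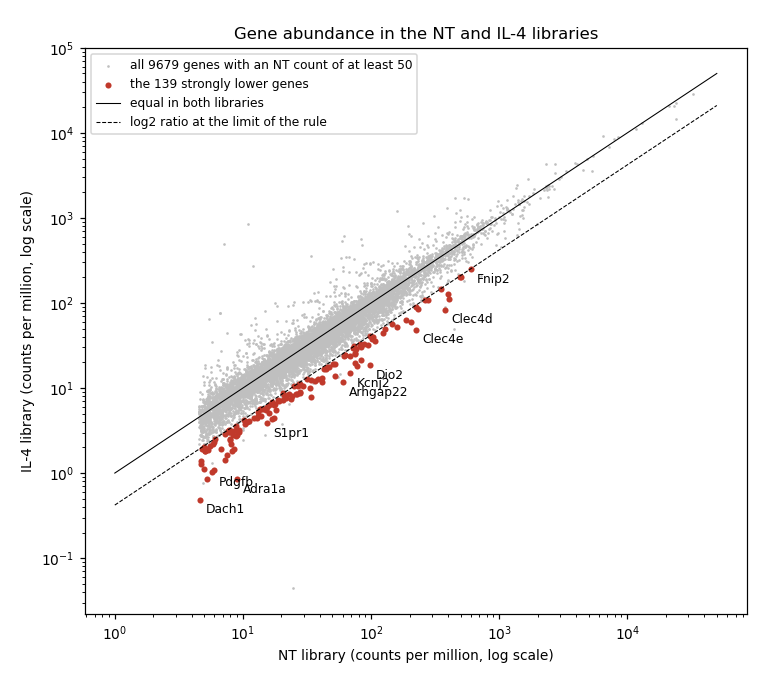
Each point is a gene, with its level in the NT library (counts scaled to library total, CPM) on the horizontal axis and in the IL-4 library on the vertical axis, both on log scales. Gray points are the 9679 genes with an NT count of at least 50, red points are the 139 strongly lower genes, the solid line marks equal levels and the dashed line the log2 ratio of -1.25. The red points follow the dashed line from the lowest levels up to Fnip2, and Adra1a and Dach1 lie farthest below it.

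Most of these genes had low levels. Per transcript length, their NT levels ranged from 0.58 to 286.72 FPKM (fragments scaled for transcript length and library depth) with a median of 4.61, beside 11.88 for all genes with at least 50 NT counts. There were 72 genes under 5 FPKM and 12 above 50 FPKM. By reads, the median was 250 NT counts, beside 381.3 for all genes with at least 50 NT counts. Of the 139, 37 had under 100 NT counts and 25 had at least 1000. The rule used the NT count and FPKM divides by length, so nothing is read from these differences in level.

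The 12 most abundant genes of the set had different roles. Clec4d, a C-type lectin receptor that signals through Fc receptor gamma chains, had 286.72 FPKM in NT and 63.2 in IL-4. Its neighbor Clec4e (Mincle), which recognizes mycobacterial cord factor, had 89.04 and 19.15 FPKM. Msrb1, a methionine sulfoxide reductase, had 265.48 and 95.54 FPKM, and Ncf1 (p47phox), an organizer of the phagocyte NADPH oxidase, had 156.28 and 49.84. Basp1, a membrane-associated protein, had 188.3 and 79.11 FPKM, and Gngt2, a G protein gamma subunit, had 146.58 and 57.19. Mamdc2, a MAM-domain proteoglycan, had 120.54 and 32.74 FPKM, and Rab7b, a small GTPase of late endosomes, had 112.28 and 44.55. The list of 12 was completed by Fnip2, a folliculin-interacting protein (83.81 and 34.45 FPKM), Iqsec1, an Arf GTPase exchange factor (75.45 and 31.22), Hal, which breaks down histidine (52.49 and 20.06), and C77080 (51.2 and 20.86). All 12 remained above 19 FPKM in the IL-4 library. Thus the most abundant genes of the set were lower but still well detected.

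**Figure D2:**
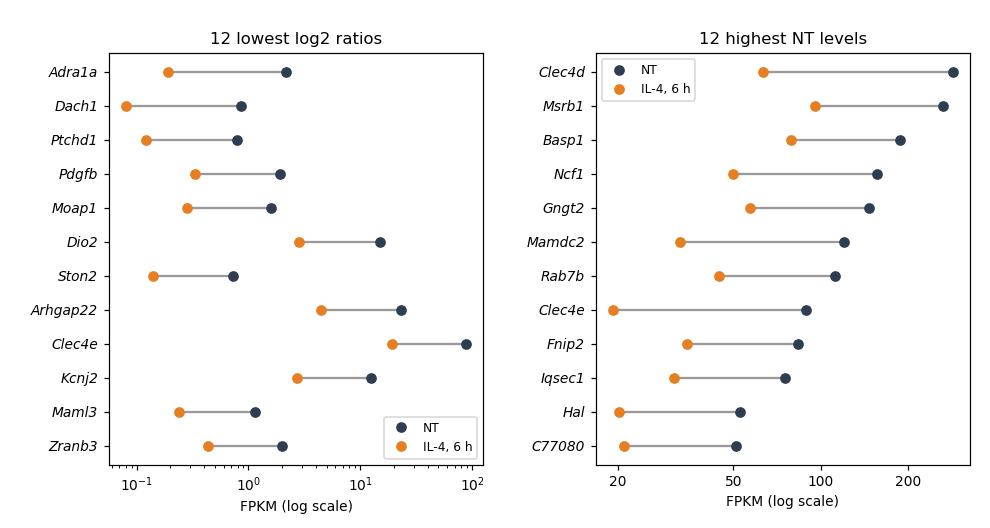
NT (dark) and IL-4 (orange) levels in FPKM on log axes for the 12 genes with the lowest log2 ratios (left) and the 12 with the highest NT levels (right), 1 library per group. Clec4e is in both panels, and 8 of the 12 genes on the left started below 3 FPKM.

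The lowest ratios belonged mainly to genes with few reads. Adra1a, the alpha-1A adrenergic receptor, had 98 counts in NT and 9 in IL-4 (log2 ratio -3.40, interval -4.64 to -2.49). Dach1, a transcriptional cofactor, had 50.5 and 5 counts (-3.24, -5.06 to -2.06). Ptchd1, a Patched-domain protein, had 57 and 8.99 counts (-2.63, -3.89 to -1.67), and Pdgfb, the platelet-derived growth factor B chain, had 63 and 11 (-2.49, -3.62 to -1.61). The intervals of these 4 genes overlapped, so counting error does not separate their order. The better-counted genes had narrower intervals. Dio2, the deiodinase that makes active thyroid hormone, had 1075 and 207 counts (-2.40, -2.63 to -2.19). Arhgap22, a GTPase-activating protein for Rac1, had 667 and 132 (-2.36, -2.65 to -2.09). Kcnj2, the inward rectifier potassium channel Kir2.1, had 761.17 and 168.18 (-2.20, -2.46 to -1.96). Clec4e had 2484 and 545 (-2.22, -2.35 to -2.08), and Clec4d 4186 and 941 (-2.18, -2.28 to -2.08). The other genes among the lowest 12 were Moap1 (65.6 and 11.8 counts), Ston2 (80.1 and 15.4), Maml3 (83 and 18) and Zranb3 (91 and 20).

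The promoter sequences of 3 of these genes are shown because Clec4e and Clec4d lie side by side and were lower together, and Dio2 was the lowest gene with over 1000 reads. Each is the stretch of 250 bases before a RefSeq transcription start site (GRCm38.p6), written 5′ to 3′ along the gene.
Clec4e (chr6:123289872-123290121, minus strand, TATAAA in capitals): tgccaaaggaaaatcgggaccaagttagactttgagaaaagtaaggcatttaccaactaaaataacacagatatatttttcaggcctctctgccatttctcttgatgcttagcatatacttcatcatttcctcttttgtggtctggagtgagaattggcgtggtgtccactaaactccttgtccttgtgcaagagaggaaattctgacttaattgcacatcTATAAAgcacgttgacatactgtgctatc
Clec4d (chr6:123261857-123262106, plus strand, no searched motif in capitals): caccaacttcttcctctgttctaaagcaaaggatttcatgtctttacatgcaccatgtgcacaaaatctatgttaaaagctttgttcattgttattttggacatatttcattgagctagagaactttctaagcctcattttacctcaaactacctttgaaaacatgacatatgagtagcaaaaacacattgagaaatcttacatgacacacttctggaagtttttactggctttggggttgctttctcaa
Dio2 (chr12:90739039-90739288, minus strand, TGACGTCA and TATAAA in capitals): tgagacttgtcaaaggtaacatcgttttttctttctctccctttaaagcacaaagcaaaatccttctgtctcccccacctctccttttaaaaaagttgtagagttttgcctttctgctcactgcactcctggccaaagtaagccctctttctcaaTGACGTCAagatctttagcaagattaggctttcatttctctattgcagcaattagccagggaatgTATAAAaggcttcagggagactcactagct
The TATAAA of Clec4e begins 29 bases before the start site and that of Dio2 30 bases before it. The cyclic AMP response element of Dio2 begins 95 bases before the start. Clec4e and Clec4d each hold GAGGAA, the core letters of the myeloid factor PU.1, on either strand: in Clec4e at 123 and 56 bases before the start, and in Clec4d at 240 bases before it.

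Among pattern recognition and scavenger receptors, 5 genes were in the set, with a median log2 ratio of -2.09, the lowest of the 12 role groups into which the 139 genes were sorted by hand. Besides Clec4e and Clec4d they were Clec12a, an inhibitory C-type lectin (855 counts in NT, 205 in IL-4, -2.09), the scavenger receptor Stab1 (924 and 343, -1.46) and the sialic acid-binding receptor Siglec1 (813 and 348, -1.25). Of 30 measured lectins and immunoglobulin-type receptors in a list by symbol, 4 (13.3%, beside 1.72% of all genes) lay at or below -1.25 and 3 at or above 1.25 (1.27% of all genes), with a median of -0.21. The 3 higher genes were the inhibitory Fc receptor Fcgr2b (1752 and 13485 counts, log2 ratio 2.92), the M2-associated lectin Clec10a (74.3 and 305, 2.0) and the beta-glucan receptor Clec7a (Dectin-1; 5452 and 14074, 1.34). Thus C-type lectins lay at both ends of the response: Clec4e, Clec4d and Clec12a were lower, and Clec7a and Clec10a were higher.

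G protein-coupled receptors formed the next group. Of 35 measured receptor genes by symbol, 6 (17.1%, beside 1.72% of all genes) lay at or below -1.25 and 2 at or above 1.25 (1.27% of all genes), and the median was -0.32. They included Adra1a, the orphan receptor Gpr162 (54 and 12 counts), the sphingosine-1-phosphate receptor S1pr1 (169 and 43), the lysophospholipid- and proton-sensing receptor Gpr132 (240 and 86) and the complement C5a receptor C5ar1 (840 and 325). The best counted of these, C5ar1, had 30.14 FPKM in NT and 11.42 in IL-4. The symbols at the upper end were the prostaglandin E2 receptor Ptger2 and Cnrip1, which binds a receptor and is not one. Prokr1, a prokineticin receptor outside the symbol list, had 175 and 57 counts. Downstream of receptors, 2 of 44 genes of G protein and cyclic nucleotide signaling were in the set (4.55%, beside 1.72% of all genes). They were Gngt2 (907 and 361 counts) and the cyclic AMP phosphodiesterase Pde7b (231 and 92). None of the 44 was at or above 1.25 (1.27% of all genes).

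Growth factor and developmental signaling contributed 11 genes with a median NT level of 1.98 FPKM. Of 23 measured genes with symbols of developmental ligands and receptors, 3 (13.0%, beside 1.72% of all genes) lay at or below -1.25 and none at or above 1.25, and the family median of -0.66 was the lowest of the 16 families listed by symbol. The 3 were the Notch ligand Jag1 (89 and 24 counts), the activin receptor Acvr2b (87 and 27) and Tgfbi (92 and 31), a TGF-beta-induced matrix protein that matches by name only. The Notch coactivator Maml3 was also lower, at -2.20, as was the TGF-beta signal transducer Smad3 (207 and 81 counts, -1.38). Nrp2, a co-receptor for semaphorins and VEGF, was the most abundant of the group, at 37.39 FPKM in NT and 14.91 in IL-4. The VEGF receptor Kdr had 171 and 66 counts.

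Innate, kinase and phosphatase signaling held 17 genes. Apart from Ncf1 (4412 and 1440 counts) and Msrb1 (2588 and 950), the best counted were Slfn5, a Schlafen family member (1771 and 592), and the death-associated kinase Dapk1 (1178 and 405). Adaptors of the NF-kB and Toll-like receptor pathways were among them: Nfkbiz, a nuclear IkB protein (103 and 36 counts), Tbkbp1, a TBK1-binding adaptor (309 and 126), and the ubiquitin ligase Peli2 (350 and 144). Nfkbiz was the single one of 30 measured NF-kB pathway genes at or below -1.25 (3.33%, beside 1.72% of all genes). The kinase Ripk2 was the single one at or above 1.25 (1.27% of all genes). With 1 gene at either end, nothing is read from these shares. The list median was -0.13. Irs2, an adaptor of the insulin and IL-4 receptors, lay near the limit with 152 and 64 counts (-1.27, -1.72 to -0.85).

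The 10 regulators of small GTPases had a median ratio of -1.53. They included Arhgap22, Arhgap24 (820 and 293 counts) and Arhgef18 (196 and 72). Of 21 Ras and Rap regulators there were 2 (9.52%, beside 1.72% of all genes), and the family median was -0.39. The 2 were the Rap exchange factor Rapgef5 (74 and 21) and the Ras GTPase-activating protein Rasal2 (87.3 and 34.1). Rap1gap2 (186 and 48 counts) and Sh2d3c (823 and 286), both of Rap signaling, were outside these symbol lists. Actin, microtubule and junction proteins numbered 18, led by the formin-homology protein Fhdc1 (93 and 21 counts), the neuron navigator Nav2 (377.1 and 88.05), cingulin-like Cgnl1 (829 and 219) and the kinesin Kif21b (582 and 156).

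Transcription and genome maintenance was the largest group, with 19 genes, yet none exceeded 9.94 FPKM in NT. It included Pou2f2 (Oct-2; 366 and 112 counts), Prdm1 (Blimp-1; 145 and 52), the calcineurin-dependent factor Nfatc2 (85 and 34), the clock gene Per3 (103 and 34) and Zfhx3 (306.3 and 101.14). Of 303 measured genes with Zfp, Zbtb, Zkscan or Zscan symbols, Zfp503 and Zfp275 were in the set (0.660%, beside 1.72% over all genes), and zinc finger proteins under other symbols, such as Zfhx3 and Prdm1, were not counted there. Of 50 genes with symbols of other factor families, 4 (8%) were, namely Dach1, Smad3, Nfatc2 and Foxred2, although Foxred2 encodes an oxidoreductase and matches the forkhead prefix by name only. Likewise Dna2, a nuclease and helicase, matched the prefix for dyneins only by name.

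Among channels, transporters and enzymes, 16 genes had a median of -1.44. In addition to Dio2 and Kcnj2 they included the AMP deaminase Ampd3 (925.07 and 243.06 counts), the cholesterol exporter Abca1 (912 and 373) and its relative Abca5 (61 and 23), the metalloreductase Steap4 (55 and 20) and the carboxypeptidase Cpd (3077 and 1234). Of 86 transport ATPases by symbol, 2 (2.33%, near the 1.72% of all genes) lay at or below -1.25 and 2 at or above 1.25 (Atp6v0a1 and Abcb1a), and the median was 0.12. The symbol prefixes do not take in Tpcn1 or Cpd. By prefix, 1 each of 29 ion channels (3.45%), 26 proteases (3.85%) and 41 MAP kinase cascade genes (2.44%) was in the set. These were Kcnj2, Adamts2 (52.5 and 21.3 counts) and Map3k9 (87 and 28). No phosphoinositide or phospholipase gene of 41 was in the set, and 1, Inpp5a, was at or above 1.25. With 1 gene or none per list beside 1.72% of all genes, nothing is read from these shares. Of 158 ubiquitin pathway genes by symbol, 3 (1.90%) were in the set, close to the 1.72% over all genes: Marchf9 (198 and 61 counts), Rnf150 (153 and 52.4) and Peli2. Membrane traffic and lysosome genes numbered 11 and included the endosomal cation channel Tpcn1 (1125 and 448 counts) and the endoplasmic reticulum-phagy receptor Retreg1 (758 and 265).

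**Figure D3:**
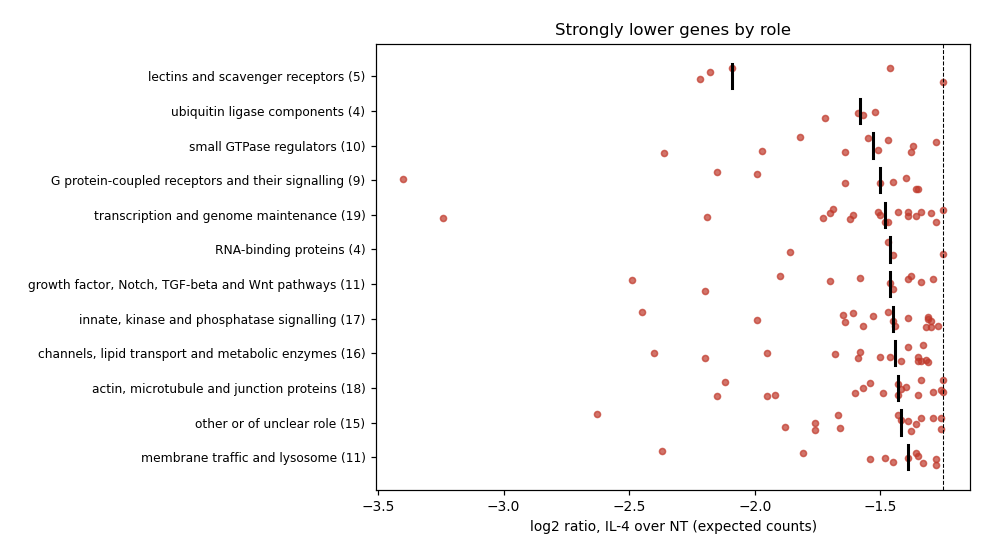
Log2 ratios of IL-4 over NT for the 139 genes, 1 point per gene, in 12 role groups assigned by hand (number of genes in parentheses), with black bars at the group medians and a dashed line at the limit of -1.25. Lectins and scavenger receptors have the lowest median (-2.09), and the medians of the other 11 groups lie between -1.58 and -1.39.

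Close relatives were compared with these genes by shared symbol stem. For 61 of the 139 genes, 1 to 6 relatives had at least 50 NT counts, giving 114 distinct relatives. Of these, 8 were themselves in the set and 106 were not, where 1.44% of all genes with at least 50 NT counts are in the set. The 106 had a median log2 ratio of -0.29, beside -0.02 over all 9679 genes and -0.30 over their longest quartile. Relatives were not matched by length, so nothing is read from these counts. Of the 106, 27 were above 0, and 1 was at or above 1.25 (1.27% of all genes). That 1 was Pstpip1, a cytoskeletal adaptor, with 903 counts in NT and 2494 in IL-4 (log2 ratio 1.44, interval 1.33 to 1.55), whereas Pstpip2 had 274 and 117 (-1.25, -1.58 to -0.94). The formins Fmnl1 (1036 and 362 counts, -1.54) and Fmnl3 (500 and 199, -1.35) were lower, and Fmnl2 had 156 and 329 (1.05, 0.77 to 1.33). Since the rule placed one side of each pair at or below -1.25 and the other above it, and the pairs were picked after the values were seen, these values are a description.

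Further pairs are given in the same way, with no test. Of the cytosolic NADPH oxidase subunits, Ncf1 had a log2 ratio of -1.64 (-1.73 to -1.56) and Ncf4 (p40phox) 0.10 (0 to 0.20; 1639 and 1789 counts). Of the AMP deaminases, Ampd3 had -1.95 and Ampd2 0.70 (436 and 720 counts). Of the lysosomal and endosomal 2-pore channels, Tpcn1 had -1.36 and Tpcn2 0.61 (1946 and 3037 counts). Smad3 had -1.38, and Smad2, the other TGF-beta receptor substrate, 0.31 (560.09 and 709.05 counts). S1pr1 had -1.99 and S1pr2 -0.12 (1084 and 1014 counts). By contrast the Period genes lay near each other, with Per3 at -1.61 (-2.23 to -1.05), Per1 at -1.10 (-1.37 to -0.84) and Per2 at -1.15 (-1.89 to -0.47).

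**Figure D4:**
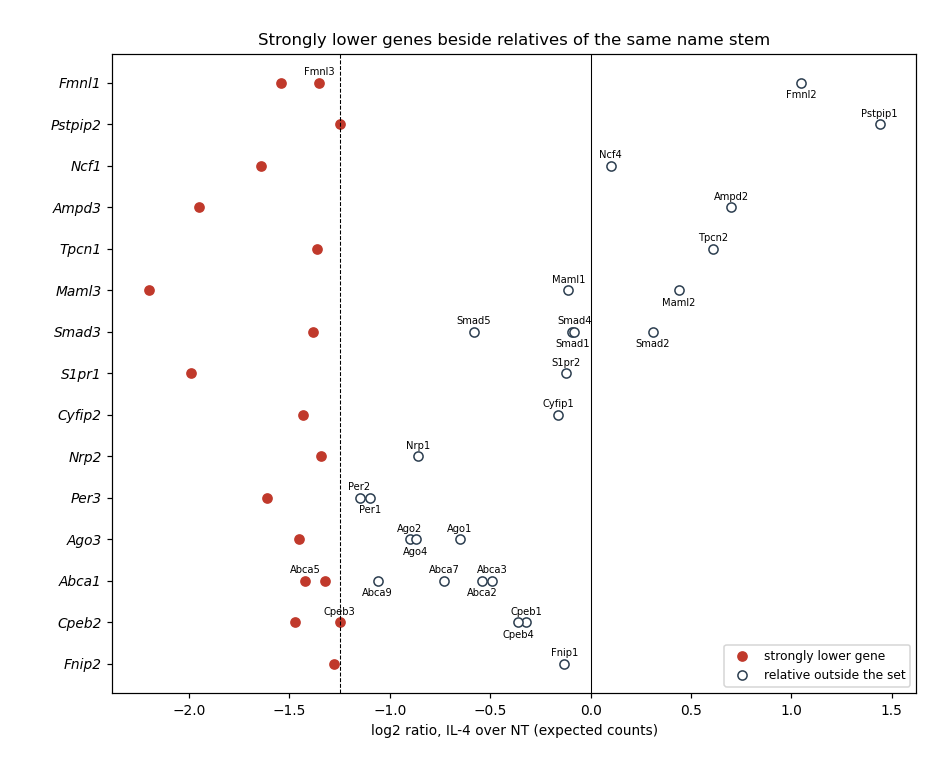
Log2 ratio of IL-4 over NT for 15 of the 139 genes (red) and for measured relatives by symbol stem outside the set (open circles), each relative labelled, with vertical lines at 0 (solid) and -1.25 (dashed). Fmnl2 and Pstpip1 lie to the right of 1, whereas the relatives of Per3 and Ago3 lie to the left of 0.

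Transcript length, which the rule did not use, set the 139 genes apart from the rest. Their median length was 4898 bases (quartiles 3139 to 7040), beside 2893 (1860 to 4332) for all genes with at least 50 NT counts. Of the 139, 112 (80.6%) were longer than the median of all genes, 77 (55.4%) were in the longest quartile of all genes and 7 in the shortest. The ratio itself followed length in these libraries. From the shortest to the longest quartile of all 9679 genes the median log2 ratio was 0.15, 0.05, -0.06 and -0.30, and the share at or below -1.25 was 0.372%, 0.991%, 1.99% and 3.51%. After subtraction of the median ratio of genes of like length, 78 of the 139 (56.1%) were still at or below -1.25. Of all 9679 genes 115 (1.19%) were, from which nothing is read, since the 139 had been chosen for low ratios. The highest of the 139 then lay at -0.81 and their median was -1.34. The part of transcript length in single ratios was not tested beyond this subtraction.

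The counts after subtraction are given by role. All 9 genes of receptors and their signaling stayed at or below -1.25, as did 10 of 16 channel and enzyme genes, 6 of 10 small GTPase regulators and 3 of 5 lectins and scavenger receptors. Of the 19 transcription genes 9 did, of the 11 membrane traffic genes 4 and of the 4 RNA-binding proteins (Bicc1, Cpeb2, Cpeb3 and Ago3) 1. So did 6 of 11 growth factor and developmental genes, 10 of 17 innate and kinase genes and 9 of 18 actin and junction genes. The last 2 groups had 2 of 4 ubiquitin ligase components and 9 of 15 other genes. Median transcript length was 2676 bases in the receptor group, 5996 in the transcription group and 6309 in the RNA-binding group. Subtraction takes more from long transcripts, so nothing about roles is read from these counts. Clec4d (-2.35 after subtraction) and Clec4e (-2.26) stayed below the limit, whereas Stab1 (-1.01) and Siglec1 (-0.97) did not. Likewise Zfhx3 (-1.02), Hectd4 (-0.99) and Abca1 (-0.81), with transcripts of 16439, 15496 and 10260 bases, no longer reached the limit.

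**Figure D5:**
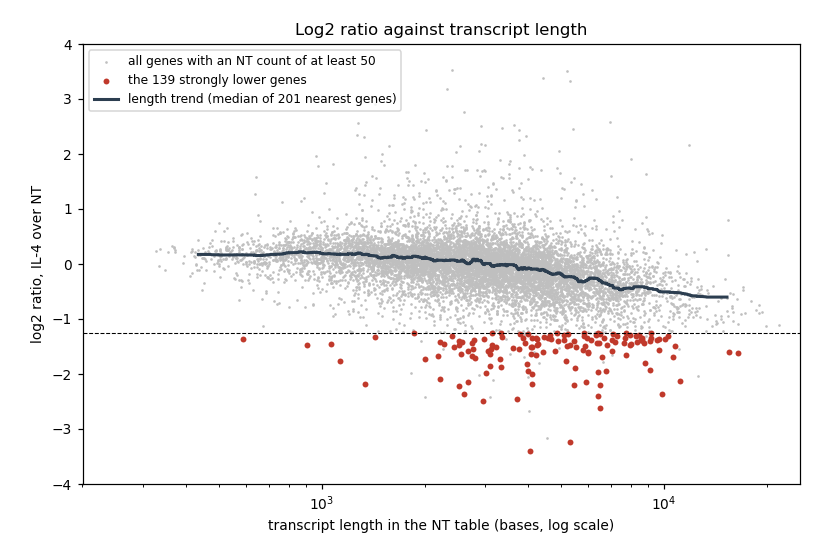
Log2 ratio of IL-4 over NT against transcript length in the NT table (log axis) for all genes with an NT count of at least 50 (gray) and the 139 strongly lower genes (red), with the length trend as a dark line and the limit of -1.25 dashed. The trend falls from above 0 at short lengths to about -0.6 at the longest, and most red points lie at lengths above 2893 bases, the median of all genes. Genes outside the plotted range of -4 to 4 are not drawn.

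The gene models carried the same difference. In 1 GENCODE transcript per gene (139 of 139 matched, and 97.9% of all genes with 50 NT counts), the median coding length was 2187 bases for the set and 1383 for all. The 3′ UTR was 1880 and 1119 bases, the gene span 46353 and 22625 bases and the number of exons 11 and 9. Base composition was close, at 50.56% and 49.98% G and C. AU-rich elements, searched as TATTTAT on the transcript strand, were in 41.0% of 3′ UTRs of the set and 29.4% of all, but per kilobase of 3′ UTR there were 0.285 and 0.283. In 94 genes the isoform-weighted length was identical in both tables. It differed by over 5% in 5: Map3k9, Tnrc18, Nfatc2 and Syne1 were shorter in the IL-4 table and Sh2d3c longer.

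Promoter windows of 250 bases before to 50 after a start site were given in RefSeq for 114 of the 139 genes. The Stat6-type palindrome TTCNNNNGAA, searched on both strands, was in windows of 3 of them (2.63%, Clopper-Pearson 95% interval 0.546 to 7.498), beside 6.27% of 7861 genes with at least 50 NT counts and 8.01% of all 27025 genes. The 3 were Zranb3, Peli2 and Zfp503, with the motif beginning 237 and 181 bases before the start and 35 bases after it, respectively. The 250 bases before the start are shown for those in which it lies upstream. For Zranb3 that start lies inside the RefSeq gene bounds, whose 5′ end is base 128103053. Its motif is therefore upstream of this start only. In Peli2 the bounds begin at base 48120777, within the window shown and after the motif.
Zranb3 (chr1:128102472-128102721, minus strand, TTCNNNNGAA in capitals): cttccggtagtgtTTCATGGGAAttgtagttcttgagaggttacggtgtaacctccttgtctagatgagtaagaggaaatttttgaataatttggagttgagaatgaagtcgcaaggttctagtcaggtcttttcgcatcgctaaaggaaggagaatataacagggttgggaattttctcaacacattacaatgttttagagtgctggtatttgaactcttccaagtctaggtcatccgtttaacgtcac
Peli2 (chr14:48120619-48120868, plus strand, TTCNNNNGAA in capitals): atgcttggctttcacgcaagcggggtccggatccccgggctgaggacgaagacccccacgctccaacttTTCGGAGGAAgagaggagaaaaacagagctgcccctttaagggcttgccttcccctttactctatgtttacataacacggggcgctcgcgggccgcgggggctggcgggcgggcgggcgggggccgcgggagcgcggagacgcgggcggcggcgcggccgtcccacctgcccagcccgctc
In Peli2 the motif overlaps a GAGGAA that begins 177 bases before the start. The palindrome with the shorter spacer, TTCNNNGAA, was in 9 genes (7.89%), among them Ncf1, beside 8.19% of genes with 50 NT counts. Both intervals include the share among genes with 50 NT counts, so no difference from them was detectable with 114 genes, although the first ends below the 8.01% of all genes.

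For the other motifs the interval of each share also included the share among genes with at least 50 NT counts. GAGGAA was in 41 genes (36.0%) beside 30.6%, the AP-1 site TGACTCA in 8 (7.02%) beside 4.36%, the cyclic AMP response element TGACGTCA in 3 (2.63%: Dio2, Moap1 and Retreg1) beside 3.74%, and the E-box CACGTG in 10 (8.77%) beside 12.6%. The NF-kB site was in 17 (14.9%) beside 12.02%. TATAAA was in 15 (13.2%, interval 7.56 to 20.8) beside 8.10% of genes with 50 NT counts and 15.7% of all genes. A match describes these letters in this window only.

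The 138 genes with a RefSeq position lay on 20 chromosomes, X included, with 16 on chromosome 11 and 12 on chromosome 5. In the order of genes with at least 50 NT counts, 7 pairs were direct neighbors. Neither number is set beside a count over all measured genes, so nothing about clustering is read from them. Clec4d and Clec4e on chromosome 6 were separated by 6520 bases, and Stab1 and Nt5dc2 on chromosome 14 overlapped by 108 bases, and their reads may not be fully separable. Psme2b and 9930111J21Rik1 on chromosome 11 overlapped as well. The other 4 pairs (Gngt2 and B4galnt2, Abca5 and Kcnj2, Arhgap24 and Ptpn13, Rnf150 and Tbc1d9) were 17824 to 728440 bases apart.

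The values of 4 genes depend on how reads were divided between near-identical sequences. Of the 31-base words of its transcripts, Moap1 shared 88.6% with Gm20604, 9930111J21Rik1 82.5% with 9930111J21Rik2, Psme2b 76.5% with Psme2 and Hyal1 63.4% with Naa80. Psme2, a proteasome activator subunit, had 725.96 counts in NT and 1016.2 in IL-4, opposite in direction to Psme2b (113.32 and 42.03). These 4 ratios are uncertain. Expected counts that were not whole numbers, a sign of shared reads, occurred for 37 genes (26.6%) beside 22.3% of all genes with 50 NT counts.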

How the data were processed

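RNA of 1 NT and 1 IL-4 library was sequenced on a HiSeq instrument. Per the labels, the authors mapped reads with Bowtie and estimated expression with RSEM on GRCm38 (mm10). Versions are not given in the sources used here. The deposited tables hold, per gene, the expected count, the FPKM and an isoform-weighted length. Expected counts were estimated by the authors with RSEM and need not be whole. FPKM values were deposited as scaled by the authors for length and depth.

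Tables were joined on gene identifier, with absent genes at 0. Ratios used expected count plus 0.5 over the table total, with Clopper-Pearson 95% intervals (SciPy 1.17.1). With 1 library per group no count model was fitted, and edgeR 4.0.16 and DESeq2 1.42.0 supplied scaling factors only. The ratio and interval were tested on simulated counts that held counting error only. That checks the calculation and not the spread between cultures. The length trend was taken, for each gene, as the median over its 201 closest neighbors in length that had at least 200 reads. Symbols came from RefSeq for 15587 of 15623 genes, and for 15 through a transcript accession in GENCODE M21. Promoters came from RefSeq (GRCm38.p6).

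Named genes were the 12 lowest ratios, the 12 highest NT FPKM, up to 4 genes per symbol family, the 3 on each side of the limit and those with length changes over 5%. Other genes were named by role after their values were seen. The genes, families, marker lists and motifs were chosen with earlier results of these data known, and roles and relatives after the values were seen. Alternatives were other scalings, pseudocounts of 2 counts or of 0.1 and 1 FPKM, other limits and subtraction of the length trend. A few genes and 1 gene family are not reported here.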

Additional observations from a re-analysis of the deposited data

How the results depend on the processing

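No paired analysis was possible because there was 1 library in either group. The number of strongly lower genes, 139 as reported, was 46 with FPKM plus 1, 87 with the length trend subtracted, 1077 with no NT count minimum, 274 with the limit at -1, 62 with the limit at -1.5 and 52 when the whole counting interval had to lie below the limit. Under the other alternatives it stayed between 102 and 202, including 140 when genes missing from the RefSeq table were kept as unnamed, an alternative added after seeing the data. The added gene has 272.91 counts in NT and 0 in IL-4, and its transcript accession belongs to Gm4631. Their median ratio on the log2 scale, -1.47 as reported, changed to -1.43 with TMM, -1.44 with DESeq2 size factors, -1.49 without the 100 most abundant genes in the total, -1.45 with 2 counts added, -1.40 with FPKM plus 0.1, -1.10 with FPKM plus 1 and -1.34 with the length trend subtracted. Of the 139 genes, 126 kept their place with TMM and 129 with DESeq2 size factors. The share still below the limit after subtraction was 56.1% and became 58.3% with a narrower window of lengths. The share of promoters with a Stat6-type motif rose from 2.63% to 10.5% when either spacing was accepted, by construction. Of the recomputed ratios of 56 named genes 50 moved, 34 of them with FPKM plus 1 and 16 with the length trend subtracted. None reversed, but the genes were chosen for low ratios in the same counts, so nothing is read from this. Counting error at 50 to 100 reads limits the order of the lowest ratios, and the spread between cultures is unknown.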
